A study of Rattus norvegicus with 939 samples.

Results

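The nuclear genes of oxidative phosphorylation were followed in primary rat hepatocytes exposed to 125 compounds. A gene was taken as a member when its symbol in the platform annotation begins with Ndufa, Ndufb, Ndufc, Ndufs, Ndufv, Sdha to Sdhd, Uqcr, Cox4i, Cox5, Cox6, Cox7, Cox8 or Atp5, assembly factors (Ndufaf, Sdhaf) excluded, and when a probe set carries that symbol alone. This gave 80 of the 14218 genes measured. By symbol alone, 36 of the members were placed in complex I, Ndufa4 and Ndufa4l2 among them. Another 4 were placed in complex II, 7 in complex III, 17 in complex IV and 16 in complex V. They rest on 89 probe sets, and the 8 members with several were read from the one with the highest mean. A further 7 probe sets naming a second gene beside a member were left out, which removed Cox7a2 and the c-ring genes Atp5mc1 and Atp5mc2 and left Cox5a on its other, dimmer probe set. Cox6c-ps1 is annotated as a transcribed pseudogene, and Atp5if1 encodes an inhibitor of ATP synthase rather than one of its catalytic parts.

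Oxidative phosphorylation couples the oxidation of NADH and succinate to the synthesis of ATP across the mitochondrial inner membrane. Complex I (NADH dehydrogenase) and complex II (succinate dehydrogenase) pass electrons to ubiquinone, complex III passes them on to cytochrome c, complex IV hands them to oxygen, and complex V (ATP synthase) uses the resulting proton gradient. Most subunits are encoded in the nucleus and a few of the core ones in mitochondrial DNA, so the complexes need both genomes. Hepatocytes hold many mitochondria and oxidize fatty acids and amino acids through this chain. Of the 13 subunits encoded in mitochondrial DNA, 0 were measured under their symbols, and the values here describe transcripts and not protein or respiration.

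Expression was measured as log2 values on 939 arrays of cultured primary rat hepatocytes. DMSO was the vehicle, although some control titles do not name it, and the labels give no strain, sex or age of the animals. Treated cultures received 1 compound at 1 dose for 0.67 d or 1 d, and control cultures received vehicle alone for the same times. The main comparisons set a compound and dose against the controls whose descriptions name it, 128 comparisons in all (colchicine, gentamicin and zidovudine at a pair of doses each), with 766 treated arrays and 104 controls; 126 comparisons had 6 treated arrays and 2 had 5, against 6 to 34 controls. Some control descriptions give TGF beta or Mln with another end number, and these were read as TGF Beta-1 and Mln-518. Many comparisons share control arrays, and their results are therefore not independent of one another. The controls of the whole series, repeats and dose series included, form 17 sets. The other uses of the arrays are described at the end, namely 6 compounds at 3 doses with 3 arrays each, 7 compounds repeated in a second campaign, and the 2 exposure times. Control titles carry a date, taken here as a culture day, and the 104 controls span 51 such days. Treated arrays carry no such date, and the labels do not say whether arrays of a group came from separate animals. The p-values therefore measure the spread between these arrays, which may be partly technical.

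In the 104 controls the 11 hepatocyte markers measured had a mean log2 level between 11.6 and 12.4 per array, and their median gene stood at percentile 99.2 of all genes. Markers of other liver cell types were lower, with a mean per array of 4.74 to 8.04 for 8 Kupffer cell markers, 4.65 to 6.52 for 7 endothelial, 5.3 to 6.67 for 8 stellate cell and 5 to 5.95 for 5 cholangiocyte markers. The median of the 80 members lay between 10.2 and 11.07 on the control arrays, with a middle value of 10.86. Since each array carries RNA of a whole culture, fewer cells of a type and less RNA per cell cannot be told apart.

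Of the arrays of the main comparisons, 3 stood apart from their labels or their set. They were picked by looking at the arrays, and the results below that use them are given with and without them. On 1 of the 3 gemfibrozil arrays at 1 d, Ehhadh, a peroxisomal enzyme, had a log2 level of 10.7 against 4.16 to 5.11 on the other 5 gemfibrozil arrays, and the stress factor Ddit3 9.81 against 12 to 12.3. On 1 clofibrate array at 0.67 d the reverse was seen, with Ehhadh at 4.02 and Ddit3 at 12.2. On 1 control array at 0.67 d, in a set that serves lomustine, valdecoxib and sporidesmin A among others, the member median was 10.2 against 10.79 to 10.94 on the other 3 arrays of that set and time. That array held the lowest value of the 4 for 68 of 80 members, and its median over cytosolic ribosomal protein genes was also low (12.5 against 12.88 to 12.92). By Dixon's test at 4 arrays it was not an outlier (its gap was 0.79 of the range of the 4). Another control array, at 1 d in a set that serves pantoprazole, cisplatin, rabeprazole and stavudine among 14 compounds, did exceed that value with a member median of 10.75 against 10.88 to 10.89. Without it 12 members were lower with pantoprazole in place of 13, and 2 were higher with cisplatin as before.

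Across the 128 comparisons the members moved little in size and mostly downward. A member was called where the adjusted p (limma, Benjamini-Hochberg over all 14218 genes) was 0.01 or less and the change 1.5-fold or more. Of 10240 tests of a member in a comparison, 182 were lower (1.78%) and 36 higher (0.352%), where 4.92% of all tests of all genes were lower and 3.67% higher. Without the bound on fold, 1793 member tests were lower (17.5%) and 284 higher (2.77%), against 9.52% and 9.95% for all genes. The difference between members and all genes in these shares was not tested. The median absolute log2 change was 0.10 for members and 0.12 for all genes, and the median standard error 0.062 and 0.085.

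The member median was below 0 in 98 comparisons and above 0 in 30, with a range of −0.36 to 0.24 and a median of −0.06. At least 1 member was called lower in 45 comparisons and higher in 23, and no member was called in 77. At the adjusted p alone, 10 or more members were lower in 56 comparisons and higher in 6, and 40 or more were lower in 15 and higher in 0. Over genes, 37 members were lower in some comparison, 10 were higher, 3 of them both, and 36 were never called; Cox4i1 and Cox7b2 were not called even at the adjusted p alone. How many of all genes were ever called was not counted, so these numbers give no contrast between members and other genes.

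**Figure D1:**
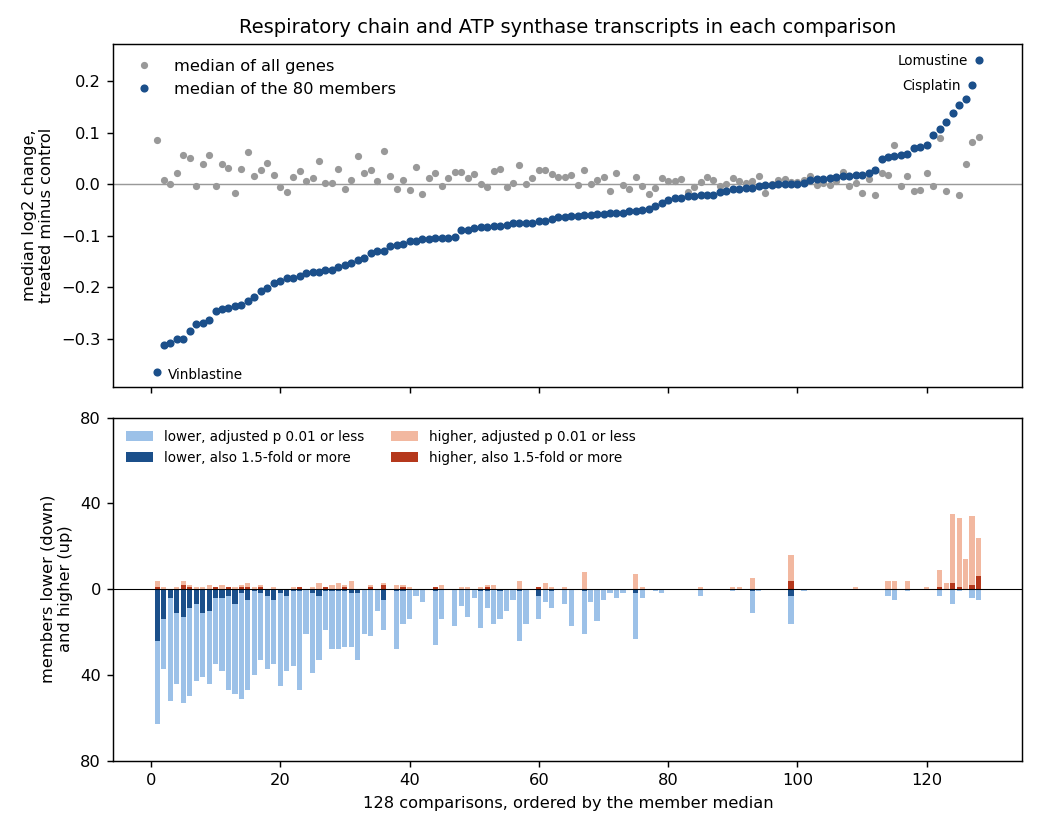
Median log2 change (treated minus control) of the 80 members and of all 14218 genes in each of 128 comparisons, ordered by the member median (upper panel), and the number of members called lower, drawn downward, and higher, drawn upward (lower panel), with light bars for an adjusted p of 0.01 or less and dark bars for a change of 1.5-fold or more as well. The member medians run from −0.36 in vinblastine to 0.24 in lomustine, and 98 of 128 lie below 0.

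This balance depended on how arrays were scaled. When the median of each array over the 14218 genes was subtracted, 89 member tests were called lower and 90 higher. Lower calls then made up 49.7% of member calls in place of 83.5%. Another quantile normalization of the deposited values gave 199 and 38 (84%). The subtraction moved the median of all genes by −0.07 to 0.30 between comparisons (median 0.04, above 0.1 in 24 comparisons), and the member median changed sign in 18. At the adjusted p alone the subtracted values still held more lower than higher member tests, 1062 (10.4%) and 636 (6.21%), where 7.71% of all tests were lower and 14.1% higher. At 1.5-fold the subtracted member shares were 0.869% lower and 0.879% higher, and those of all genes 4.03% and 5.12%. The difference between the member median and the median of all genes is not touched by this choice, and it is given for the comparisons described below.

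The calls are given here by complex. Complex I, the entry point for NADH, had 122 lower and 11 higher calls over 4608 tests, complex II 17 and 0 over 512, complex III 13 and 0 over 896, complex IV 2 and 18 over 2176, and complex V 28 and 7 over 2048. At the adjusted p alone 33.2% of complex II tests were lower, 20.2% each of complex I and complex V, 19.5% of complex III and 4.73% of complex IV. All 6 members below percentile 40 of control expression belong to complex IV (Cox4i2, Cox6b2, Cox6c-ps1, Cox7a1, Cox7b2 and Cox8b). Each of them was lower in 0 comparisons at the adjusted p alone. Of the 18 higher calls of complex IV, Cox6a2 gave 11 and Cox7a1 gave 4. With array medians subtracted the 1.5-fold calls became 60 lower and 39 higher for complex I, 8 and 0 for complex II, 7 and 5 for complex III, 1 and 33 for complex IV and 13 and 13 for complex V. Complex II was therefore called lower and never higher at 1.5-fold under both scalings. Most of these calls came from 1 gene, as Sdha gave 15 of the 17 as deposited and all 8 after subtraction. At the adjusted p alone 170 complex II tests were lower and 5 higher as deposited, and 114 and 17 after subtraction. The Cox symbols counted as complex IV had more higher than lower calls under both. Ndufa4l2, placed in complex I by symbol, gave 23 of the 122 lower and 2 of the 11 higher complex I calls as deposited. The counts of complexes I and IV therefore depend on where Ndufa4l2 is placed. These shares describe genes that share arrays, and the difference between complexes was not tested.

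**Figure D2:**
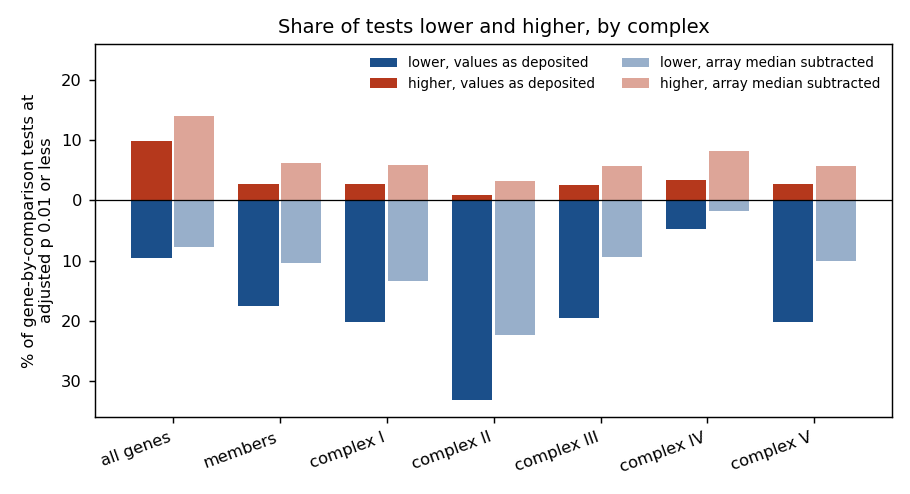
Percent of gene-by-comparison tests lower (downward) and higher (upward) at an adjusted p of 0.01 or less, for all genes, the 80 members and each complex, with values as deposited (dark) and after subtracting each array's median (light). As deposited, complex II reaches 33.2% lower and complex IV 4.73%. Complex IV holds all 6 members below percentile 40 of control expression.

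Vinblastine at 45 µM, a drug that prevents microtubule assembly, had the most members called lower. It lowered 24 members and raised 1, with 17.1% of all genes lower and 10.4% higher; at the adjusted p alone 63 members were lower, against 26.5% of all genes. The member median over arrays ranged from 10.37 to 10.57 (median 10.44) on the 6 treated arrays and from 10.78 to 10.98 on the 16 controls, so the groups did not overlap. By symbol, 17 of the 24 belong to complex I (Ndufa4l2 among them), 2 to complex II, 1 to complex III and 4 to complex V, with 0 in complex IV. The median change was −0.57 in complex I, −0.66 in complex II, −0.24 in complex III, −0.35 in complex V and −0.0018 in complex IV.

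Ndufa12, an accessory subunit of complex I, lay between 8.07 and 8.84 (median 8.50) with vinblastine and between 9.68 and 9.90 (median 9.78) in controls. No treated array reached the lowest control, and the fitted change was −1.27 (SE 0.077, 2.41-fold, adjusted p = 1.36e-12). Ndufv2, an iron-sulphur subunit of the NADH-oxidizing module, was at 8.49 to 9.53 against 10.11 to 10.56, again without overlap (−1.23, SE 0.105, adjusted p = 4.65e-10). Atp5f1a, the alpha subunit of the ATP synthase catalytic head, was at 10.35 to 10.78 against 11.33 to 11.66 (−0.98, SE 0.057, adjusted p = 8.32e-13). Ndufa4l2, a relative of the subunit Ndufa4 known for its rise in hypoxia, was at 5.57 to 6.79 against 6.81 to 8.53 (−1.51, SE 0.244, adjusted p = 9.12e-06), and its highest treated array almost met its lowest control. The exception in the other direction was Cox6a2, the heart and muscle form of a complex IV subunit, at 7.47 to 9.50 against 5.26 to 8.15 with overlap (1.24, SE 0.335, adjusted p = 0.00252). Cox4i1, the main form of another complex IV subunit, changed by −0.03 (adjusted p = 0.47).

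All 6 vinblastine arrays lay below all 16 controls for 47 of 80 members and above them for 0, where 16.2% of all genes lay below and 12.3% above. Relative to the median of all genes the member median was −0.45 (1.37-fold lower). Hepatocyte markers were also lower on these arrays, 8 of 11 called, with a list mean of 9.77 to 11.24 against 11.9 to 12.3, while the median of 46 cytosolic ribosomal protein genes changed by 0.08; the part of the marker change in the result was not tested. Pairs of treated and control arrays hybridized on the same day gave member medians of −0.31, −0.36 and −0.42. With array medians subtracted 11 members were lower, all among the 24, and 2 were higher (11.7% and 23.9% of all genes).

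Gemfibrozil at 2000 µM, a fibrate, lowered 14 members and raised 0 (12.3% of all genes lower, 10.7% higher), and 37 at the adjusted p alone (16% of all genes). The member median was 10.41 to 10.89 (median 10.54) on 6 treated arrays and 10.76 to 10.94 on 8 controls, and the treated array at 10.89 is the one that goes against its label. For 0 members did the groups separate fully, where 1.43% of all genes lay below all controls and 2.92% above them. Atp5f1e, the epsilon subunit of ATP synthase, was at 9.03 to 11.45 (median 10.16) against 11.33 to 11.60, a change of −1.28 (SE 0.267, 2.43-fold, adjusted p = 0.00188). Ndufa9, an accessory subunit of complex I, changed by −1.17 (SE 0.226, adjusted p = 0.00126), Atp5f1a by −1.05 (SE 0.178, adjusted p = 8.11e-04) and Ndufs3, a core subunit of complex I, by −0.84 (SE 0.19, adjusted p = 0.00286). Without the doubted array 20 members were lower and 53 at the adjusted p alone (16.9% and 23.6% of all genes), with a member median of −0.38 in place of −0.31. Without replicate number 2, 0 were called (the doubted array, a replicate 1, then remains), and likewise 0 at 1 d alone and 0 with hybridization day as a block. The member median relative to all genes was −0.32, and with array medians subtracted 5 members were lower, all among the 14 (9.58% of all genes lower). Hepatocyte markers were lower for 5 of 11 and stellate cell markers for 4 of 8, and the part of either in the result was not tested.

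Pantoprazole at 650 µM, a proton pump inhibitor, lowered 13 members and raised 2 (15.1% of all genes lower, 14.4% higher), and 53 were lower at the adjusted p alone (23.1% of all genes). The member median lay within 10.63 to 10.7 on the treated arrays, a narrow range, and within 10.75 to 10.89 on 8 controls. Ndufa2, a small complex I subunit, was at 8.58 to 9.18 against 9.85 to 10.16, a change of −1.15 (SE 0.091, 2.22-fold, adjusted p = 5.64e-08). Sdha, the flavoprotein that oxidizes succinate, was at 9.60 to 9.91 against 10.60 to 10.74 (−0.82, SE 0.055, adjusted p = 1e-08). Atp5f1a fell by 0.95 and Ndufv2 by 0.90 on the log2 scale, also with separate groups. In the opposite direction Atp5if1, which blocks ATP hydrolysis by ATP synthase, was at 11.34 to 11.71 against 10.49 to 11.03 (0.71, SE 0.083, adjusted p = 3.18e-06), and Cox7a1, the muscle form of a complex IV subunit, at 5.83 to 6.24 against 5.13 to 5.48 (0.74, SE 0.074, adjusted p = 6.03e-07). Treated and control arrays were separate, with treated lower, for 46 members (17% of all genes) and with treated higher for 3 (17.4%). The member median relative to all genes was −0.36, and hepatocyte markers were lower for 5 of 11, whose part in the result was not tested. With array medians subtracted 5 members were lower, all among the 13, and 3 higher (11.7% and 19.5% of all genes), and at 0.67 d alone 7 were lower.

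Doxofylline at 13500 µM, a xanthine bronchodilator, and sparteine at 2222 µM, a plant alkaloid, were set against the same 6 controls and are described side by side. Doxofylline lowered 11 members (10.9% of all genes; 7.15% higher) and sparteine 11 (13% of all genes; 7.43% higher), and neither raised a member. The member median was 10.43 to 10.75 with doxofylline, 10.5 to 10.71 with sparteine and 10.77 to 10.95 in the controls, so both treated groups lay below them. With doxofylline Sdha was at 9.62 to 9.90 against 10.52 to 10.75 (−0.91, SE 0.071, adjusted p = 3.6e-07), Ndufa9 at 8.84 to 9.35 against 9.93 to 10.15 (−0.94, SE 0.083), Atp5f1a at 10.41 to 10.75 against 11.31 to 11.63 (−0.85) and Ndufa4l2 at 5.883 to 7.147 against 7.151 to 7.984 (−1.03, SE 0.189). With sparteine Atp5f1a was at 10.03 to 10.69 (−1.12, SE 0.088, adjusted p = 2.28e-07), Ndufs1, the large iron-sulphur subunit of complex I, at 9.11 to 9.40 against 10.02 to 10.33 (−0.86, SE 0.079), Ndufs7 at 9.43 to 9.70 against 10.14 to 10.41 (−0.72) and Ndufs3 at 9.10 to 9.56 against 9.88 to 10.15 (−0.69). None of these 8 pairs of ranges overlapped, but they are the largest called changes. All treated arrays lay below all controls for 39 members with doxofylline and 45 with sparteine (13.5% and 16.4% of all genes). They lay above all controls for 0 and 2 (10.6% and 10.8%). Of the hepatocyte markers, 2 of 11 were lower and 1 higher with doxofylline (list mean 12.05 to 12.42 against 12.09 to 12.36) and 3 of 11 lower with sparteine (11.67 to 12.01). Relative to all genes the member medians were −0.32 and −0.31, and with array medians subtracted 8 members were lower with doxofylline and 2 with sparteine (7.86% and 8.76% of all genes).

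Valdecoxib at 450 µM, a cyclooxygenase-2 inhibitor, lowered 10 members and raised 0 (13.3% of all genes lower, 12.2% higher), with 44 lower at the adjusted p alone (22% of all genes). The member median was 10.55 to 10.68 on treated arrays, below 13 of the 14 controls (10.77 to 11); the remaining control, at 10.2, is the one that stands apart. Uqcrh, the hinge protein of complex III, was at 9.78 to 10.26 against 10.45 to 11.25 (−1.12, SE 0.09, 2.18-fold, adjusted p = 4.15e-10), and Ndufa4l2 at 6.20 to 6.68 against 6.98 to 7.98 (−1.19, SE 0.141). Ndufa9 fell by 0.76 without overlap and Atp5mpl, a small membrane subunit of ATP synthase, by 0.78 with overlap on the log2 scale. With all 14 controls, the treated arrays lay below every control for 6 members (11.9% of all genes) and above for 0 (14.4%). Without the control array that stands apart 11 members were lower and 54 at the adjusted p alone (13.4% and 23% of all genes), and the median was −0.32 in place of −0.26. The member median relative to all genes was also −0.32 with it. Hepatocyte markers were lower for 3 of 11 and endothelial markers for 4 of 7, and their part in the result was not tested.

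**Figure D3:**
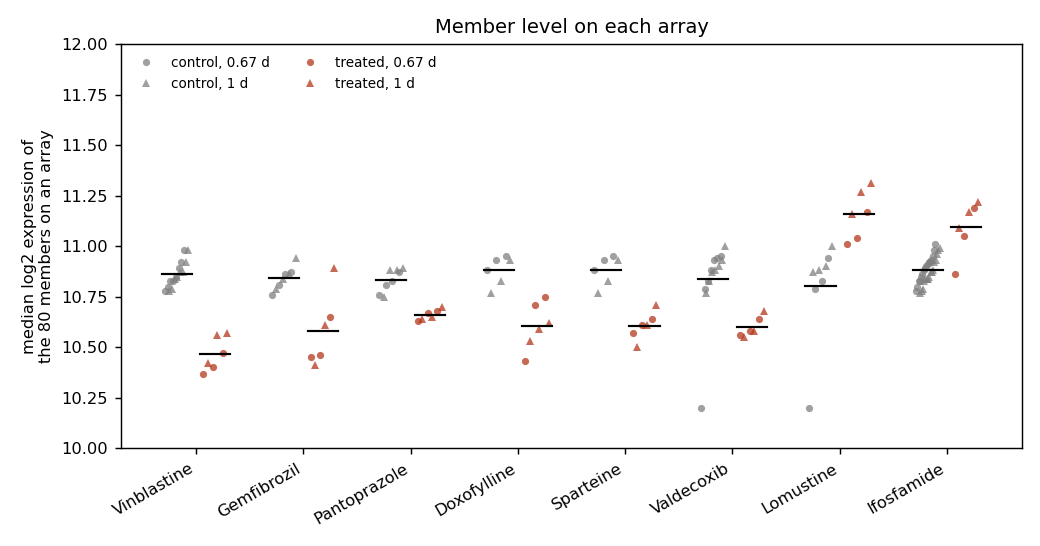
Median log2 expression of the 80 members on each array for 8 compounds, with controls in grey, treated arrays in red, circles for 0.67 d, triangles for 1 d and bars for group means. The vinblastine arrays (10.37 to 10.57) lie below all their controls and the lomustine arrays (11.01 to 11.31) above theirs, 1 gemfibrozil array at 10.89 sits among its controls, and 1 control array shared by valdecoxib and lomustine stands at 10.2.

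Lomustine at 560 µM, a nitrosourea that alkylates DNA, had the highest member median. It raised 6 members and lowered 0, where 11.8% of all genes were higher and 15.6% lower, and at the adjusted p alone 24 members were higher and 5 lower (25.3% of all genes higher). The member median was 11.01 to 11.31 on treated arrays and 10.2 to 11 on 8 controls. Atp5if1 was at 11.53 to 11.92 against 10.01 to 11.06 (0.97, SE 0.133, 1.95-fold, adjusted p = 1.11e-05). Ndufa7 was at 11.44 to 11.72 against 9.99 to 10.90 (0.82, SE 0.12), Ndufa5 at 9.86 to 10.34 against 8.57 to 9.57 (0.72, SE 0.127), and Cox5a, a complex IV subunit, at 7.494 to 8.252 against 6.894 to 7.485 (0.78, SE 0.109). These ranges did not overlap, though those of Cox5a nearly met. All treated arrays lay above all controls for 22 members (17.7% of all genes) and below them for 3 (16.3%). Without the control array that stands apart 4 members were higher (11.2% of all genes), and the member median was 0.17 in place of 0.24. At the adjusted p alone 33 were then higher (26.1% of all genes) and 5 lower (23.5%). Against all controls of the campaign 3 were higher. Sdha and Atp5f1a went the other way, by −0.28 each (adjusted p = 7.06e-04 and 1.8e-04). The ribosomal protein median moved with the members, by 0.21, hepatocyte markers were lower for 3 of 11 and higher for 1, and neither was tested as part of the result. Relative to all genes the member median was 0.15, and with array medians subtracted 21 members were higher (21% of all genes).

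Ifosfamide at 11000 µM, a prodrug of a DNA crosslinking agent, raised 3 members and lowered 0 (9.59% of all genes higher, 15.4% lower), and at the adjusted p alone 35 were higher and 7 lower (41.5% and 25.2% of all genes). Cox7a1 was at 5.64 to 6.55 against 5.03 to 5.64 in 32 controls (0.68, SE 0.086, adjusted p = 5.43e-09), Atp5if1 at 11.47 to 11.86 against 10.43 to 11.35 (0.67, SE 0.081, adjusted p = 2.84e-09) and Cox5a at 7.32 to 8.01 against 6.63 to 7.39 (0.61, SE 0.082, adjusted p = 2.05e-08). The Atp5if1 groups were separate, while those of Cox7a1 and Cox5a overlapped. All treated arrays lay above all controls for 3 members (9.23% of all genes) and below them for 2 (11.2%). The ifosfamide member median of 0.14 differed from the median of all genes by −0.00067. The median over ribosomal protein genes changed by 0.17, and hepatocyte markers were lower for 3 of 11 and endothelial markers for 2 of 7; their part in the result was not tested. Cisplatin at 63 µM, another DNA crosslinker and named after its values were seen, raised Cox5a by 0.73 and Ndufa7 by 0.61 (10.4% of all genes higher), with a member median of 0.19 against 0.08 for all genes.

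Valeric acid at 23000 µM, a short-chain fatty acid, moved members both ways, with 3 lower and 4 higher (14.7% and 13.7% of all genes) and 16 in each direction at the adjusted p alone (23.6% of all genes lower and 24% higher). The member median was 10.85 to 11.04 against 10.83 to 10.89 in 6 controls, and the fitted member median was 0.00099, or −0.004 relative to all genes. Within complex I, Ndufs3 was at 8.95 to 9.54 against 10.03 to 10.33 (−0.99, SE 0.096, adjusted p = 1.09e-06), Ndufs8 at 8.02 to 8.85 against 9.12 to 9.37 (−0.79) and Ndufa9 at 9.17 to 9.62 against 9.87 to 10.18 (−0.69). In the same complex Ndufa6 was at 11.30 to 11.79 against 10.61 to 10.82 (0.89, SE 0.077, adjusted p = 3.65e-07), Ndufb10 at 11.11 to 11.49 against 10.55 to 10.76 (0.67) and Ndufa7 at 11.34 to 11.57 against 10.69 to 10.86 (0.67). Ndufs3 and Ndufs8 are core subunits of the arm that reaches into the matrix, Ndufa9 lies at its junction with the membrane arm, and the members that rose are accessory subunits. Cox7a1 of complex IV was higher by 0.59. None of these groups overlapped, but full separation was common with valeric acid. Treated arrays lay below every control for 14 members (19.2% of all genes) and above every control for 15 (19.9%).

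Sporidesmin A at 0.15 µM, a fungal toxin, lowered 5 members and raised 2 (14.1% of all genes lower, 4.85% higher). Ndufs1 was at 8.61 to 9.18 against 9.98 to 10.33 (−1.12, SE 0.069, 2.17-fold, adjusted p = 1e-11), and the small subunits Ndufc1, Ndufb4 and Ndufc2 fell by 0.92, 0.90 and 0.87 on the log2 scale. Ndufa4l2, lower in many other comparisons, was at 8.59 to 9.85 against 6.98 to 7.98 here (1.58, SE 0.151, 2.99-fold, adjusted p = 9.99e-09), and Cox7a1 was higher by 0.63. Hepatocyte markers had 0 of 11 called (limma), with a list mean of 11.88 to 12.2 against 12.05 to 12.36. The member median of −0.13 became 0.17 with array medians subtracted, while relative to all genes it was −0.19. Without the control array that stands apart the same numbers of members were lower and higher (14.4% and 4.71% of all genes), and the member median was −0.17.

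**Figure D4:**
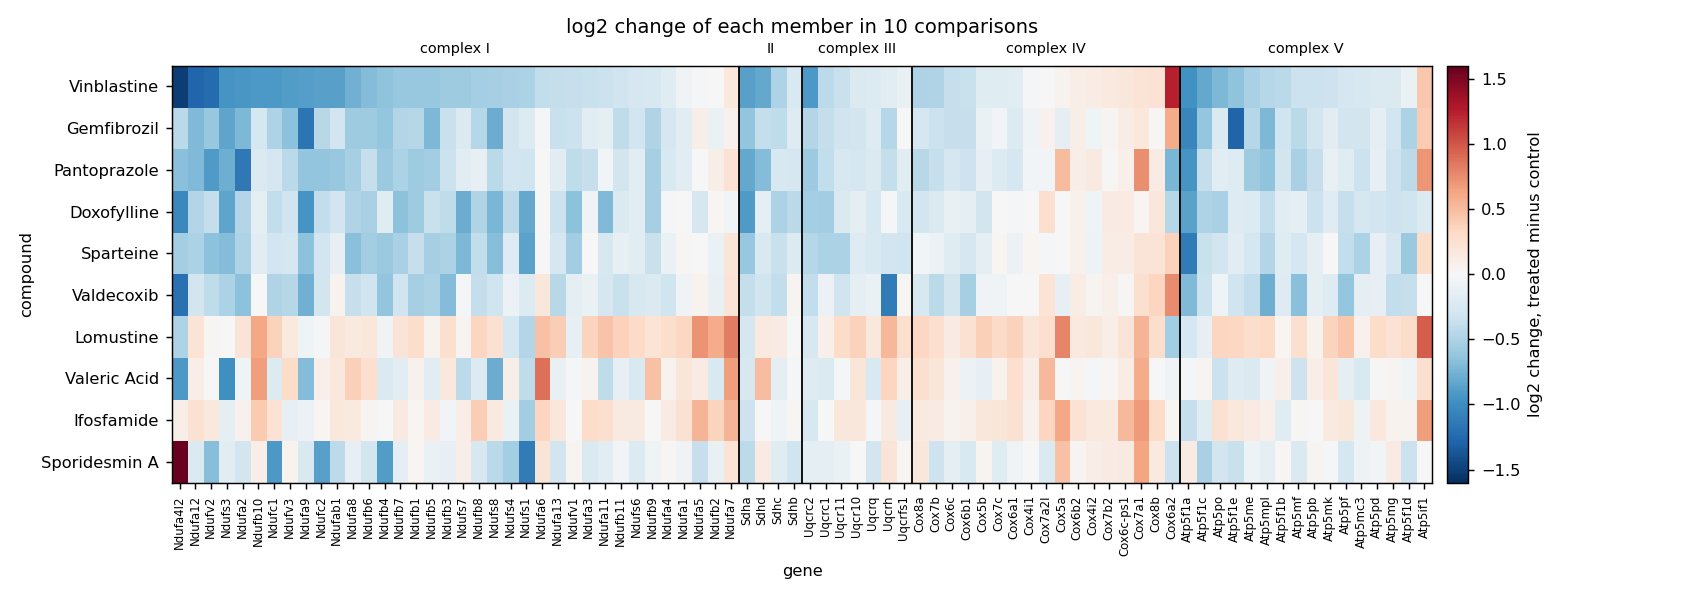
The log2 change of each of the 80 members (columns, grouped by complex) in the 10 comparisons with most members called lower or higher (rows), blue for lower and red for higher on a scale from −1.6 to 1.6. Most complex I and II columns are blue in the first 6 rows, though not all. Most complex IV columns are pale there, with exceptions such as Cox6a2 with vinblastine (1.24) and Cox7a1 with pantoprazole (0.74). Ndufa4l2 runs from −1.51 with vinblastine to 1.58 with sporidesmin A.

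Seen by gene, the member most often called lower was Ndufa4l2, in 23 comparisons and higher in 2. It is also one of the most variable members in controls, with a mean of 7.31 (SD 0.581, n = 104) and a range of 6.18 to 8.73. Its lowest change was −1.57 with itraconazole (5.43 to 6.25 against 6.20 to 8.53), followed by −1.53 with 1000 µM colchicine and −1.51 with vinblastine. Sdha was lower in 15 comparisons and, at the adjusted p alone, in 66; its controls were tight (10.67, SD 0.097). Its change ranged from −0.996 with risperidone (9.44 to 10.05 against 10.58 to 10.79) to 0.23 with staurosporine, an increase that did not pass the threshold. Ndufs3 was lower in 13 comparisons, Ndufv2 and Atp5f1a in 12 each, Ndufa2 in 10, and Ndufa9 and Uqcrh in 9 each. With array medians subtracted the counts were 22 for Ndufa4l2, 8 for Sdha, 7 for Ndufs3, 6 for Ndufv2, 9 for Atp5f1a, 2 for Ndufa2, 5 for Ndufa9 and 6 for Uqcrh.

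Within succinate dehydrogenase the 4 subunits differed in how often they crossed the bound. Sdha was lower in 15 comparisons and Sdhd, a membrane anchor, in 2, while Sdhb, the iron-sulphur subunit, and Sdhc, the other anchor, were called in 0. At the adjusted p alone Sdha was lower in 66, Sdhd in 51, Sdhc in 33 and Sdhb in 20 of 128. The lowest changes were −0.996 for Sdha, −0.82 for Sdhd with vinblastine (9.62 to 9.97 against 10.53 to 10.76), and −0.50 for Sdhc and −0.44 for Sdhb with doxofylline. The difference between subunits was not tested.

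The members called higher were 10 in number. Cox6a2 was higher in 11 comparisons and lower in 1, Atp5if1 higher in 7, Cox7a1 in 4, Cox5a, Ndufa7 and Ndufb10 in 3 each, Ndufa4l2 in 2, and Ndufa5, Ndufa6 and Ndufb2 in 1 each. Cox6a2 varied more between controls than any other member, with a mean of 6.95 (SD 0.901) and a range of 4.78 to 9.42. Its largest changes were 2.33 with diphenhydramine (7.16 to 9.68 against 5.10 to 7.76, SE 0.492, adjusted p = 0.00164), 2.25 with sulconazole (SE 0.28, adjusted p = 4.54e-05) and 2.19 with doxepin (SE 0.321, adjusted p = 5.78e-06). Carvedilol, itraconazole, nortriptyline, tetracycline, labetalol, vinblastine, 4,4'-diethylaminoethoxyhexestrol and tacrolimus complete the list at 1.15 to 1.73, and in all 11 the member median was below 0. Idarubicin gave the single lower call, at −1.08 (5.05 to 7.11 against 5.86 to 7.96). Without the control array that stands apart the changes with idarubicin and nortriptyline were −1.09 and 1.55.

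Atp5if1 was called higher with 3 of the 4 proton pump inhibitors of the series, which share the substituted benzimidazole sulfoxide frame and were tested at different doses. The change was 0.71 with pantoprazole at 650 µM, 0.76 (SE 0.083, adjusted p = 1.12e-05) with omeprazole at 400 µM and 0.81 (SE 0.119, adjusted p = 9.36e-06) with lansoprazole at 240 µM. With rabeprazole at 333 µM the change was 0.42 (SE 0.1, limma adjusted p = 0.00374), under the bound of 1.5-fold. The doses differ, so no comparison between the compounds was made, and the group was chosen after its values were seen. Omeprazole raised no other member and lowered none (5.06% of all genes higher, 7.25% lower), whereas lansoprazole lowered 5 (11.4% of all genes; 10.4% higher), Atp5f1a, Ndufa12, Ndufa2, Ndufa8 and Ndufv2, by 0.59 to 0.67 on the log2 scale. The remaining comparisons with Atp5if1 higher were isotretinoin (0.73, and 0.61 without the control array that stands apart), carmustine, ifosfamide and lomustine. A total of 3 probe sets carry Atp5if1, and the median of them changed by 0.26 with pantoprazole, 0.55 with lomustine and 0.43 with ifosfamide, below the bound in each; the same holds for Ndufa7 with lomustine (0.52) and valeric acid (0.20) and for Ndufa9 with doxofylline (−0.49), valdecoxib (−0.42) and valeric acid (−0.43).

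**Figure D5:**
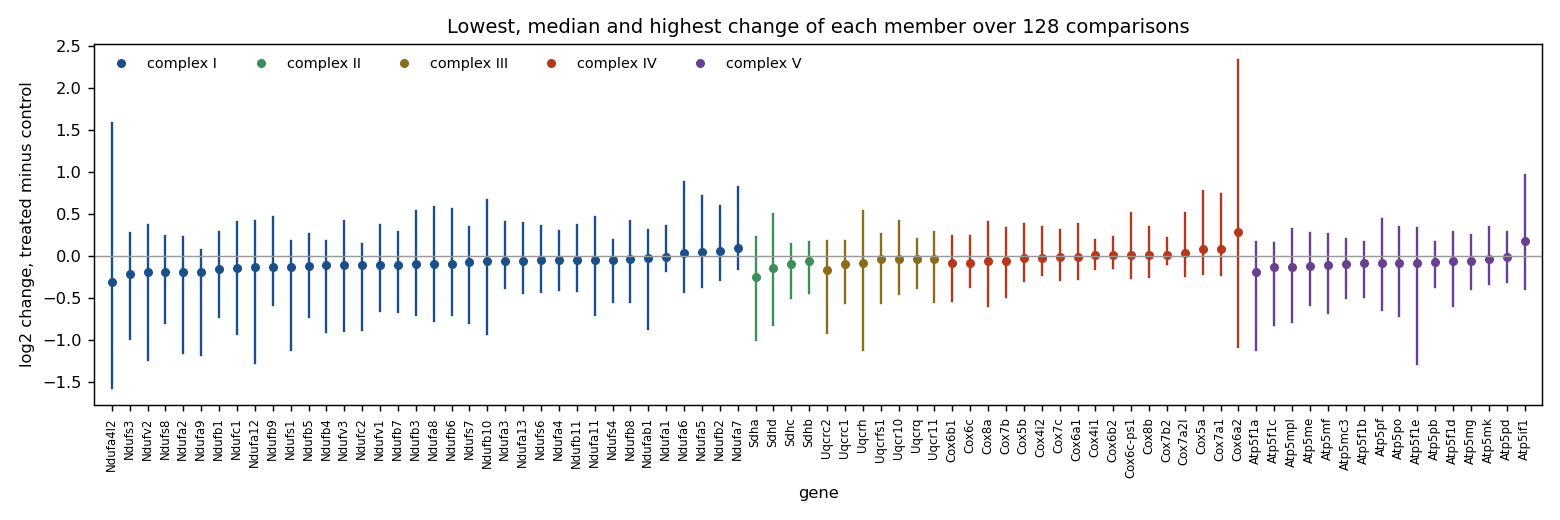
Lowest, median (dot) and highest log2 change of each member over 128 comparisons, ordered by the median within complexes. The medians lie between −0.30 for Ndufa4l2 and 0.29 for Cox6a2. Cox6a2 spans −1.08 to 2.33 and Ndufa4l2 −1.57 to 1.58, while Cox4i1 stays between −0.15 and 0.20.

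Several complex IV subunits exist in a broadly expressed form and one restricted to other tissues, and the array separates them. Levels are given as percentiles of mean control expression over all genes, without correction for probe affinity. Cox4i1 stood at percentile 99.4 (12.77, SD 0.065) and Cox4i2, the lung form, at 20.3; the changes of Cox4i1 stayed between −0.15 with tacrolimus and 0.20 with lomustine. Cox6a1, the liver form, stood at 97.1 and Cox6a2 at 49.1. Cox6a1 was never called at 1.5-fold and ranged from −0.28 to 0.39 over the comparisons in which Cox6a2 ranged from −1.08 to 2.33. Cox6b1 stood at 97.6 and the testis form Cox6b2 at 6.33, and Cox8a at 97.5 and the muscle form Cox8b at 19.1. Cox7a1, the muscle form, stood at 31.5, and its liver counterpart Cox7a2 was among the probe sets left out; Cox7a2l, a related protein known for joining complexes III and IV, stood at 94. Ndufa4 was at 98.4 and changed by −0.40 to 0.30, a much narrower range than Ndufa4l2 at percentile 53.8. Atp5mc3, the one c-ring gene measured here, stood at 99.1 and changed by −0.50 with sparteine to 0.21 with valproic acid, and was not called at 1.5-fold. Of the 80 members, 69 stood above percentile 80 and 6, all of complex IV, below percentile 40.

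The members most like the group were found by correlating each member's change with the median change of the members over 128 comparisons, a description in which the comparisons share controls. Ndufb7 (r = 0.908), Ndufa12 (0.904) and Cox7b (0.902) followed the group most closely, and 63 members had r above 0.5. Cox6a2 (−0.488), Atp5if1 (−0.186) and Cox6b2 (−0.165) followed it least, and 6 members had r below 0. Among genes that are no members, Dpm3 (0.883), Park7 (0.882) and Elob (0.868) came nearest.

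Sequence upstream of the start was printed for Sdha, Uqcrh and Ndufa12, and for Cox6a2, which ran against the group. Sdha, Uqcrh and Ndufa12, lower in 15, 9 and 6 comparisons, were taken from among the members that hold the letters marked below. They do not stand for the lowered members, since Ndufa4l2, Ndufs3, Ndufv2 and Ndufa9, lower in 23, 13, 12 and 9 comparisons, hold 0 of these letters in their windows. They are the 250 bases before the start that the RefSeq promoter table of GRCr8 uses, on the gene's strand, at chr1:30764303-30764552 (plus strand) for Sdha, chr5:134790883-134791132 (minus) for Uqcrh, chr7:30658066-30658315 (plus) for Ndufa12 and chr1:192219717-192219966 (minus) for Cox6a2. The Cox6a2 window lies inside the bounds given for the gene (192218970 to 192221188), so it follows a start other than the outermost one. Capitals mark the NRF1 palindrome, bound by the respiratory factor of that name, with any base allowed at 1 of its central positions (called relaxed here), and CCGGAAG, the core bound by ETS factors such as GABPA, on either strand.
Sdha: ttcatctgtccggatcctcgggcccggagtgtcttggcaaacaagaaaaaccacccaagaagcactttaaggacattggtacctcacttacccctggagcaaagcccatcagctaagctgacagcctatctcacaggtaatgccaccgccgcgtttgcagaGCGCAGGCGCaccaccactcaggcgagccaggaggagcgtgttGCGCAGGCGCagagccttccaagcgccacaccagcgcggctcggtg
Uqcrh: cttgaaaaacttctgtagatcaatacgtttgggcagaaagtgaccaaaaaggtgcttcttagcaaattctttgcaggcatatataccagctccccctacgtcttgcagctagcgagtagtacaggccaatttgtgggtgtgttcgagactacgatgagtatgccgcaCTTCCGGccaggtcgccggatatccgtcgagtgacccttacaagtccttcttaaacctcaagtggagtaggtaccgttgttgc
Ndufa12: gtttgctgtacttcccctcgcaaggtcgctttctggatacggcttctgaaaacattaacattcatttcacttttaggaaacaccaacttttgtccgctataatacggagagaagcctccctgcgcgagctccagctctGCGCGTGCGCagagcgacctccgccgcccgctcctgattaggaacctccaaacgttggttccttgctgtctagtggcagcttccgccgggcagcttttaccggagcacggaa
Cox6a2: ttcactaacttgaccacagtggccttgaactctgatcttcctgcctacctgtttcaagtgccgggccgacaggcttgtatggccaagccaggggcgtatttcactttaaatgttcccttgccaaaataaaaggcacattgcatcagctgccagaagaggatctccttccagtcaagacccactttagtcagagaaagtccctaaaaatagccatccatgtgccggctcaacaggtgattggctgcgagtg
Sdha holds 2 runs of the relaxed NRF1 letters, Ndufa12 holds 1, Uqcrh holds 1 of the ETS letters and Cox6a2 holds 0 of both. Atp5f1a and Ndufa2, lower in 12 and 10 comparisons, hold 1 run of the ETS letters each in the windows counted below. Their sequences were not printed.

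Promoter windows of 300 bases, 250 before the start and 50 after it, were matched for 72 of 80 members. The relaxed NRF1 palindrome was found in 13 member windows (18.1%), against 8.49% of the 11734 measured genes with a window and 4.71% of all 27457 genes. The strict palindrome was in 3 (4.17% against 1.62% and 0.932%), and its matches are contained in the relaxed ones. CCGGAAG was in 20 (27.8% against 15.1% and 9.22%) and AAGATGGC, letters bound by YY1, in 16 (22.2% against 4.73% and 3.44%). GGGCGG, bound by SP1, was in 31 (43.1% against 57.5% and 34.9%), and TGACGTCA, the cyclic AMP response element, in 3 (4.17% against 2.85% and 1.91%). Both strands were searched. The median GC content was 56% for member windows, 60% for measured genes and 52.3% for all genes. A match describes letters in a window and not a bound site.

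Of a list of compounds known to act on mitochondria, drawn up with earlier results known, most had no member called. The list holds the fibrates clofibrate and fenofibrate but not gemfibrozil, which lowered 14 members. The calls were 0 in limma for amiodarone, antimycin A, clofibrate, didanosine, fenofibrate, paraquat dichloride, perhexiline, stavudine and 1000 µM zidovudine, with between 0 and 22 members at an unadjusted p under 0.05. The background in these comparisons was low as well, at most 3.4% of all genes lower (stavudine) and 2.54% higher. At the adjusted p alone stavudine lowered 5 members (7.91% of all genes) and amiodarone 4 (5.18%), while amiodarone at 1.5-fold had 2.05% of all genes lower. Fenofibrate, a ligand of the fatty acid receptor PPAR alpha, had 0 members lower at the adjusted p alone (2.03% of all genes), with 15 members at an unadjusted p under 0.05 in either direction. Antimycin A, the inhibitor of complex III, was given at 0.03 µM, and with it the member median changed by 0.02, 0 genes of all were called and 0 members had an unadjusted p under 0.05. Zidovudine, a nucleoside analog, lowered 2 members at 14800 µM (9.72% of all genes) and 23 at the adjusted p alone (20.4%). The calls at 1.5-fold were Ndufs8 and Ndufa4l2, which fell by 0.59 and 0.91 on the log2 scale. Tetracycline at 520 µM, an inhibitor of mitochondrial translation, lowered Ndufa4l2 (−1.10, SE 0.211) and raised Cox6a2 (1.31, SE 0.366), with 5.28% and 2.59% of all genes. Rapamycin at 20 µM lowered Ndufa4l2 (−0.70, SE 0.141; 3.24% of all genes) and 9 members at the adjusted p alone (8.63%). Rapamycin uses the control array that stands apart, and without it Ndufa4l2 changed by −0.72, still the 1 member lower, and 24 members were lower at the adjusted p alone (9.52% of all genes). Clofibrate had 0 members called with and without its doubted array, and its member median was −0.02 with it and 0.02 without it.

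Nimesulide and valproic acid gave broader shifts of small size. Nimesulide at 61.7 µM, an anti-inflammatory drug that can uncouple mitochondria, lowered 4 members at 1.5-fold (9.76% of all genes) and 52 at the adjusted p alone (19.8%), with a member median of −0.31 against −0.00034 for all genes. The 4 were Ndufs3 (−0.84, SE 0.065, adjusted p = 9.16e-08), Atp5f1a (−0.81, SE 0.072), Atp5pf, a stalk subunit of ATP synthase (−0.64), and Ndufv2 (−0.64). Treated arrays lay below all controls for 46 members (13.5% of all genes). Hepatocyte markers were lower for 4 of 11, with a list mean of 11.26 to 11.74 against 11.81 to 12.32, and the 8 Kupffer cell markers had a median change of 1.06, 1 of them called higher, with a list mean of 7.46 to 8.56 against 5.51 to 7.96. Their part in the result was not tested. Valproic acid at 1000 µM, an inhibitor of fatty acid oxidation, raised 1 member, Ndufb10 (0.61, SE 0.063, adjusted p = 3.5e-07; 5.54% of all genes), and 33 at the adjusted p alone (14.3%), with 0 lower at 1.5-fold (2.98% of all genes) and a member median of 0.15 against −0.02 for all genes.

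Other mitochondrial gene groups, from lists drawn up with earlier results known, are set beside the members by their shares of calls. Of 15 measured carriers and electron donors around the chain, 10.2% of tests were lower and 1.15% higher, led by Etfdh, which passes electrons from fatty acid oxidation to ubiquinone (lower in 46 comparisons), and Slc25a4, an ADP/ATP carrier (41). Of 15 enzymes of the tricarboxylic acid cycle 5.16% were lower and 1.15% higher, with Idh2, the NADP-linked isocitrate dehydrogenase, lower in 68. Tests of 16 protein import genes were higher in 7.76% and lower in 0.537%, with the small chaperones Timm8a1 (51), Timm9 (45) and Timm10 (31) leading. Of 13 quality control genes 6.43% were higher and 3.12% lower, and these split between Lonp1 (43) and Hspa9 (29), a protease and a chaperone that rose, and the chaperone Trap1, which fell in 45. Among 19 regulators of respiratory genes 6.91% were higher and 0.863% lower, with the PGC-1 related coactivator Pprc1 higher in 46, Nrf1 in 15 and Esrra in 13. Assembly factors (40 genes; 3.03% lower, 2.62% higher) and mitochondrial ribosomal proteins (73 genes; 1.98% and 1.31%) were called in both directions. For all genes these shares were 4.92% and 3.67%.

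Among lists from outside mitochondria, 46 cytosolic ribosomal protein genes had 0% of tests lower and 0.798% higher at 1.5-fold. Hepatocyte markers were lower in 18.2% and higher in 2.2% of tests, endothelial markers in 11.8% and 0.893%, stellate cell markers in 8.5% and 0%, cholangiocyte markers in 3.91% and 0.469%, and Kupffer cell markers in 3.12% and 2.64%. Most of the 256 lower hepatocyte calls came from Cps1 (76), Apob (72), Hnf4a (51) and Fgb (34), while Alb and Serpina1 had 0. Cd68 gave 26 of the 27 higher Kupffer cell calls. The part of cell type markers in the member changes was not tested.

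Whether the change of the members depended on exposure time was tested next. In a test of treatment by time in each of the 128 comparisons, 0 members passed an adjusted p of 0.01 in limma, as against 0.0292% of all tests, and 187 of 10240 member tests (1.83%) had an unadjusted p under 0.05, where 4.77% of all genes did. The member median with vinblastine was −0.39 at 0.67 d and −0.36 at 1 d, and with nimesulide −0.32 at each. Other medians lay further apart, as with dexamethasone (0.22 at 0.67 d and 0.06 at 1 d), valdecoxib (−0.19 and −0.32) and doxepin (−0.18 and −0.31), chosen after their values were seen. Without the control array that stands apart, the 0.67 d median was 0.10 with dexamethasone and −0.26 with valdecoxib. With the replicate number as a block 1 member passed the time test, Sdhb with 2000 µM colchicine (0.36, SE 0.081, limma adjusted p = 0.00763), where 2.06% of all genes passed in that comparison. In the 52 control arrays of each time, fitted with culture day as a fixed block, 0 members differed by 1.5-fold (background 0.281% lower and 0.387% higher). At the adjusted p alone, 29 were higher and 1 lower at 1 d, against 18.9% and 16.7% of all genes. The median difference was 0.04, with Cox6a2 at 0.32, Ndufb4 at 0.14, and Atp5f1a and Ndufa2 at 0.13 each, and Atp5if1, the lower one, at −0.10.

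In the dose series, 0 of 80 members had a slope over dose at an adjusted p of 0.05 in any of 6 compounds (limma; background 0% to 0.00703%), and 0 or 1 had an unadjusted p under 0.05. The member medians with methapyrilene were −0.03 at 100 µM, −0.05 at 300 µM and −0.09 at 500 µM, and with busulfan 0.04 at 125 µM, 0.03 at 250 µM and 0.11 at 500 µM. For methapyrilene the count changed when replicate 2 was left out, and 6 members then fell with dose (15.4% of all genes passed), Ndufs3 by 0.34 per dose step, Atp5f1a by 0.29, Sdha by 0.27, Ndufb3 by 0.24, Ndufa8 by 0.18 and Atp5mc3 by 0.18 on the log2 scale.

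For 7 compounds measured in a second campaign at the same dose and time, 0 members differed between campaigns at an adjusted p of 0.01 (limma; 0% of all genes), and between 0 and 2 had an unadjusted p under 0.05. Methapyrilene at 300 µM nevertheless gave 3 members lower in the first campaign, with 1932 genes called, and 0 in the second, with 0 genes called, and its member medians were −0.16 and −0.05. Chlorpromazine at 43.9 µM had member medians of −0.09 and −0.16, and the latter became 0.01 without 1 of the 6 arrays of the second campaign, whose member median was 10.1 against 10.91 to 11.1 on the other 5.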

How the data were processed

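The authors deposited log2 values for 31099 probe sets on 939 arrays; the submitters' notes name RMA without a version, and the paper's methods name its frozen form. Array medians over all probe sets lay between 5.41 and 5.73 on the log2 scale, and 0 columns were without a sample. Such summarized intensity is background corrected and quantile normalized, so changes are relative to the bulk of probe sets on an array. Each gene was read from the probe set with the highest mean among the 20832 that carry 1 symbol (436 carry several, 9831 none). Over the 14218 genes so read, array medians lay between 6.54 and 7.19, and these were the medians subtracted.

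Groups came from the labels for compound, dose, time and replicate. For each compound and dose limma (version 3.58.1, R 4.3.3) was fitted to the treated arrays and the controls whose description names the compound, with treatment and exposure time as factors and moderated variances, and p was adjusted over 14218 genes. The number of arrays limits the precision. The fits were tested on simulated data. Members, lists and tests were chosen with earlier results of these data known. The text names the 8 members called most often in each direction, the 4 largest called changes in each direction in the 6 comparisons with most members lower and the 4 with most higher, isoform groups, the subunits of complex II, and the members most and least like the group. A compound's title and characteristic disagree on dose for 1-naphthyl isothiocyanate, whose values are not printed. Alternatives were another test, other bounds, controls, scalings, probe set rules, filters, blocks, single exposure times and each replicate number left out.

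In the dose series arrays with the same replicate number deviated together in 48 of 54 pairs (residual correlation above 0.1), all but those of methapyrilene, where 3 of 9 did; the pairing comes from the data and not the labels.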

Additional observations from a re-analysis of the deposited data

Results flagged for a closer look

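Over 14 groups of 4 to 10 arrays, the member median of 1 array lay farther from the rest than Dixon's 95% value in 2 groups, and chance flags about 1 in 20 groups. The first was replicate 5 of chlorpromazine at 43.9 µM for 1 d in the repeat campaign, at 10.1, where the other treated arrays lay at 10.91 to 11.1. The second was replicate 1 of a control set of the first campaign at 1 d, at 10.75, where the others lay at 10.88 to 10.89. That set serves pantoprazole among 14 compounds. The control array at 10.2 in the set of lomustine and valdecoxib did not exceed that value, its gap being 0.79 of the range.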

How the results depend on the processing

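With a 2-fold bound 22 member tests were lower and 12 higher, and members lower numbered 3 with vinblastine, 3 with gemfibrozil, 1 each with pantoprazole, doxofylline and sparteine and 2 with valdecoxib, and 0 were higher with lomustine. Without a fold bound the counts were 1793 and 284, then 63, 37, 53, 44, 41 and 44 lower and 24 higher. With array medians subtracted they were 89 and 90, with 11 lower for vinblastine, 5 for gemfibrozil, 5 for pantoprazole, 2 for sparteine and 21 higher for lomustine. At 0.67 d alone 16 tests were higher in all, 7 members were lower with pantoprazole and 3 higher with lomustine; at 1 d alone 0 were lower with gemfibrozil. Lomustine gave 3 higher against all controls of the campaign. The cause of these differences was not tested. Chosen after seeing the data, hybridization day as a fixed block gave 0 lower with gemfibrozil, 7 with sparteine and 3 higher with lomustine, and leaving out the 3 doubted arrays gave 189 lower and 34 higher in all. Leaving out each replicate number in turn gave 176 to 211 lower and 31 to 40 higher, and per compound 19 to 28 lower with vinblastine, 0 to 16 with gemfibrozil (0 without replicate 2), 11 to 14 with pantoprazole, 11 to 14 with doxofylline, 9 to 14 with sparteine, 7 to 11 with valdecoxib and 4 to 6 higher with lomustine, 0 to 6 dose slopes (6 without replicate 2) and 0 to 0 campaign differences. For time in culture 30 members passed without a fold bound. Leaving out 1 low control array of the pantoprazole set, also chosen after seeing the data, gave 183 lower and 36 higher in all. Of 54 single changes named above, 0 reversed under any alternative (1235 values), but 37 no longer passed with a 2-fold bound, 14 with arrays of 0.67 d only, 8 with the median of probe sets, 7 with arrays of 1 d only, 9 when a fixed term for hybridization day was fitted, 5 each with all controls and with array medians subtracted, and up to 6 without a replicate number.

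With the replicate number as a block 196 tests were lower and 45 higher, treatment by time gave 1 member (Sdhb with 2000 µM colchicine, 0.36, SE 0.081, limma adjusted p = 0.00763; 2.06% of all genes in that comparison), and no other call count changed by over 1.5 times. Same-numbered arrays had a mean residual correlation of 0.229 and others −0.0887, with every pair above 0.1 in 45 of 128 comparisons, so the numbers were not taken as pairs there.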
